A study of Mus musculus with 32 samples.

Results

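The liver response to SC-435, an oral inhibitor of the ileal bile acid transporter (IBAT, *Slc10a2*), was measured by RNA sequencing in male *Cyp2c70* knockout (KO) mice. Of the 32 livers sequenced in the study, 8 made up this comparison, 4 from chow-fed male KO mice and 4 from male KO mice given SC-435, and the labels alone placed each liver in its group. All 8 mice were C57BL/6, homozygous for the *Cyp2c70* knockout (*Cyp2c70* -/-, a CRISPR deletion of exon 2 that every cell carries) and 12 weeks old at sacrifice. The treated mice ate a diet containing 0.006% SC-435, about 11 mg/kg/day, which the labels start 3 weeks after weaning, and the control mice ate chow without the drug. Male wild-type (WT) C57BL/6 mice on chow (4) or on SC-435 (4) and female KO mice on chow (4) or on SC-435 (4), all of the same age, served for comparison.

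Hepatocytes make bile acids from cholesterol, and most of the bile acid secreted into the gut is taken back up in the ileum by IBAT and returned to the liver, so that a drug that blocks IBAT raises faecal bile acid loss. Returning bile acids restrain their own synthesis through the nuclear receptor FXR, by way of *Nr0b2* (SHP) in the liver and of *Fgf15* released by the ileum. *Cyp2c70* is the mouse enzyme that turns chenodeoxycholic acid into the hydrophilic muricholic acids. Mice without it have a more hydrophobic, human-like bile acid pool, which can injure bile duct cells and hepatocytes.

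The targeted gene was checked first. *Cyp2c70* transcripts (mm10 chr19:40153353-40187333, minus strand) stood at 187, 170, 152 and 178 CPM (read counts relative to library size) in the 4 chow-fed KO mice, at 109.8, 151, 115 and 122 CPM in the 4 KO mice on SC-435 and at 751, 522, 577 and 635 CPM in the 4 chow-fed WT mice. Every KO mouse lay below every chow-fed WT mouse. The remaining reads can come from the exons outside the deletion, since counts were given per gene.

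Library totals ranged from 40990395 to 44192999 gene counts over the 8 livers, and 3 counts, the lowest level read as detection, corresponded to 0.0529 to 0.0808 CPM. Chow-fed KO replicate 4 had the largest TMM scaling factor of the 8 (1.22, others 0.887 to 1.10), the most genes with a count (24053) and the lowest mean correlation with its own group (0.967). Hepatocyte markers were abundant in both groups, with a summed level of 17 genes between 65400 and 101000 CPM on chow and between 83000 and 109000 CPM on SC-435, and none of the 17 was called, 1 having an adjusted p under 0.05 on the higher side but a change below 1 (log2). SC-435 replicates 1 and 2 contained adipocyte transcripts (*Adipoq* 5.29 and 8.61 CPM, at most 0.135 CPM in the other 6 livers), so counts were also computed without these 2 livers. Among the comparison groups, male WT chow replicate 1 stood apart (TMM factor 0.639, mean correlation 0.907), and contrasts that use it are given with and without it. Male WT SC-435 replicate 4 also differed from its group (mean correlation 0.976). Its acute phase genes summed to 119000 CPM against 25900 to 29800 CPM in the rest of that group. Its collagen and matrix genes summed to 3120 CPM against 1680 to 1850 CPM. Effects that use this liver are given with it, and only a count of genes is given without it.

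SC-435 changed 1031 of 15984 genes tested (6.45%), 301 of them higher (1.88%) and 730 lower (4.57%), at an edgeR adjusted p under 0.05 and a change of more than 1 on the log2 scale, the limits behind every call here. Livers of the diets did not overlap for 2411 genes on the higher side (15.1%) and 1762 on the lower (11.0%). Lack of overlap was also a condition for the 12 largest rises and 12 largest falls named below. For those genes it is no separate result. Genes called higher included *Cyp7a1* and *Cyp8b1* of bile acid synthesis, *Csad* of taurine synthesis, *Hmgcs1* of cholesterol synthesis and *Cyp4a14* of fatty acid oxidation. Genes called lower included the macrophage gene *Gpnmb*, the matrix genes *Mmp12* and *Timp1*, the chemokine gene *Ccl2*, the bile duct gene *Tspan8* and the immediate early gene *Fos*. In a bulk liver, fewer cells of a type and less RNA per cell cannot be told apart. The number of lower calls depended on the livers used: it was 310, 482, 372 and 268 without SC-435 replicate 1, 2, 3 or 4, 351 without chow replicate 3, and 93 (with 163 higher) without both livers holding adipocyte transcripts, which leaves 2 treated livers. All 158 called genes named here kept their direction in that last setting. Among the 12 largest falls, *Inava* (-4.73), *Fos* (-3.90) and *Mmp13* (-3.94) then had smaller changes, and the others had changes as large or larger.

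**Figure D1:**
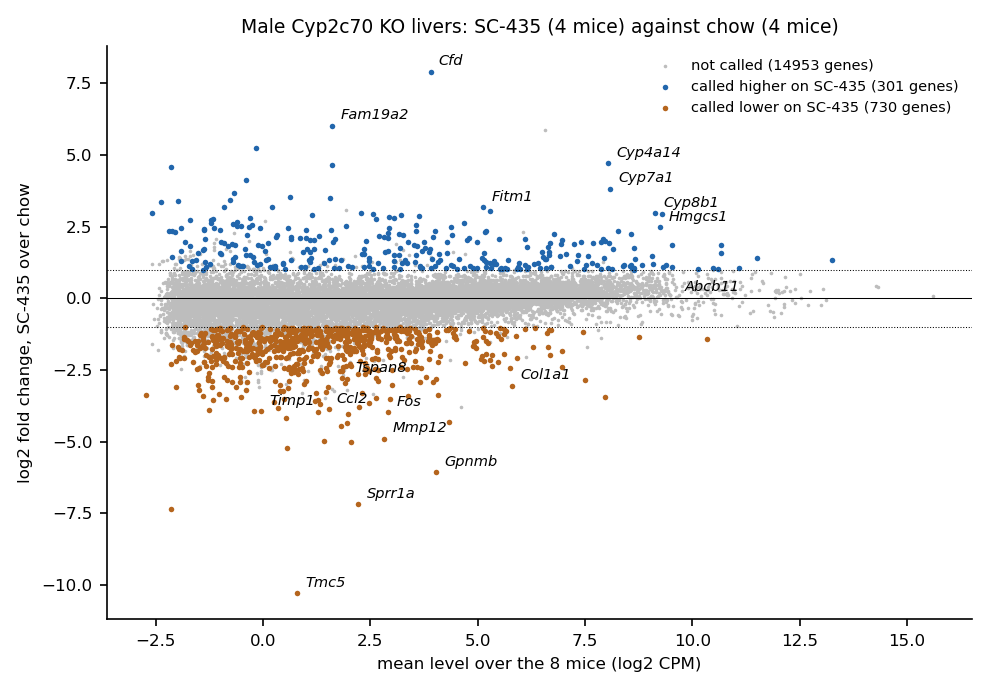
Each point is 1 of 15984 genes, with its mean level over the 8 male KO livers on the x axis (log2 CPM) and its fitted log2 fold change, SC-435 over chow, on the y axis. The 301 genes called higher are blue, the 730 called lower are orange, and the dotted lines mark a change of 1; the labelled *Tmc5* had no count in any SC-435 liver, so its position depends on the fit's prior.

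The 2 enzymes that set the rate and the product of bile acid synthesis rose, and no other gene of the pathway was called. *Cyp7a1* (mm10 chr4:6265612-6275633, minus strand), the rate-limiting cholesterol 7-alpha-hydroxylase, was at 26.5, 26.9, 25.0 and 61.0 CPM in the chow-fed KO mice and at 586, 324, 675 and 455 CPM in those on SC-435. No liver overlapped between the diets, and the rise was 14.2-fold (log2 3.83 ± 0.37 SE, adjusted p = 0.000561, n = 4 and 4). *Cyp8b1* (mm10 chr9:121914356-121916305, minus strand), the 12-alpha-hydroxylase needed for cholic acid, had 170.3, 247, 35.1 and 48.9 CPM on chow and 999, 880.1, 1063 and 1040 CPM on SC-435. Its chow values spread over a wide range while the treated livers sat close together, and it rose 7.82-fold (log2 2.97 ± 0.56, adjusted p = 0.0110). Without both livers holding adipocyte transcripts its change was 3.05 (adjusted p = 0.0753), which was not called. Of the 17 synthesis genes tested, these 2 were called higher and none lower, and the list's median log2 change was 0.41 (all genes: -0.03). *Cyp27a1*, which opens the acidic pathway, reached 0.77 (adjusted p = 0.0346) and *Cyp7b1*, its oxysterol hydroxylase, -0.64 (adjusted p = 0.197), so neither was called. Without chow replicate 2, 4 of the list were called higher. *Csad* (mm10 chr15:102176999-102204724, minus strand), the cysteine sulfinate decarboxylase of taurine synthesis, which feeds bile acid conjugation, went from 152, 202, 119 and 94.5 CPM to 1158, 927, 1273 and 1111 CPM, with no overlap (log2 2.95 ± 0.23, adjusted p = 0.000191).

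*Nr0b2* was the only one of 9 tested genes of bile acid sensing that was called, and it was lower. This FXR target, a repressor of *Cyp7a1*, measured 101, 78.0, 38.3 and 16.2 CPM on chow and 10.5, 15.7, 15.5 and 19.5 CPM on SC-435. The lowest chow liver, replicate 4, fell inside the SC-435 range, and the decrease (log2 -1.96 ± 0.48, adjusted p = 0.0258) was not called when any 1 of the 4 SC-435 livers was left out. *Nr1h4*, which encodes FXR, and *Klb*, the co-receptor for *Fgf15*, had log2 changes of 0.45 (adjusted p = 0.0127) and 0.78 (adjusted p = 0.0198), below the fold limit.

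Transporters did not move as a block: of 17 tested, 2 were called higher and 3 lower, around a median of 0.03. The canalicular bile salt export pump *Abcb11* had 857, 755, 814 and 687 CPM on chow and 816, 836, 795 and 808 CPM on SC-435 (log2 0.03 ± 0.10, adjusted p = 0.831), and its change was -0.017 without chow replicate 4. *Slc10a1*, the NTCP uptake transporter of the basolateral membrane, was 426, 444, 309.7 and 206 CPM and 559.9, 556, 605 and 581 CPM, without overlap, but its change of 0.70 (adjusted p = 0.0467) stayed under the fold limit. *Abcc4*, a basolateral exporter, was higher (1.5, adjusted p = 0.00588), and so was the organic anion transporter *Slco1a4* (1.21, adjusted p = 0.0175). Neither was called without both livers holding adipocyte transcripts, and the *Slco1a4* call was also lost without SC-435 replicate 3 or chow replicate 3. *Slc51b*, a subunit of the basolateral bile acid exporter that is known to rise in cholestasis, fell from 0.449, 0.460, 1.68 and 2.89 CPM to 0.0738, 0.196, 0.135 and 0.201 CPM (log2 -3.21 ± 0.70, adjusted p = 0.0183). That call was lost without SC-435 replicate 1, 3 or 4, and without both livers holding adipocyte transcripts. The drug exporters *Abcb1a* (-1.61) and *Abcb1b* (-1.22) were lower with overlap between the diets, *Abcb1a* not without any 1 SC-435 liver or chow replicate 3 or 4, and *Abcb1b* not without SC-435 replicate 1, 3 or 4 or chow replicate 1, 3 or 4.

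**Figure D2:**
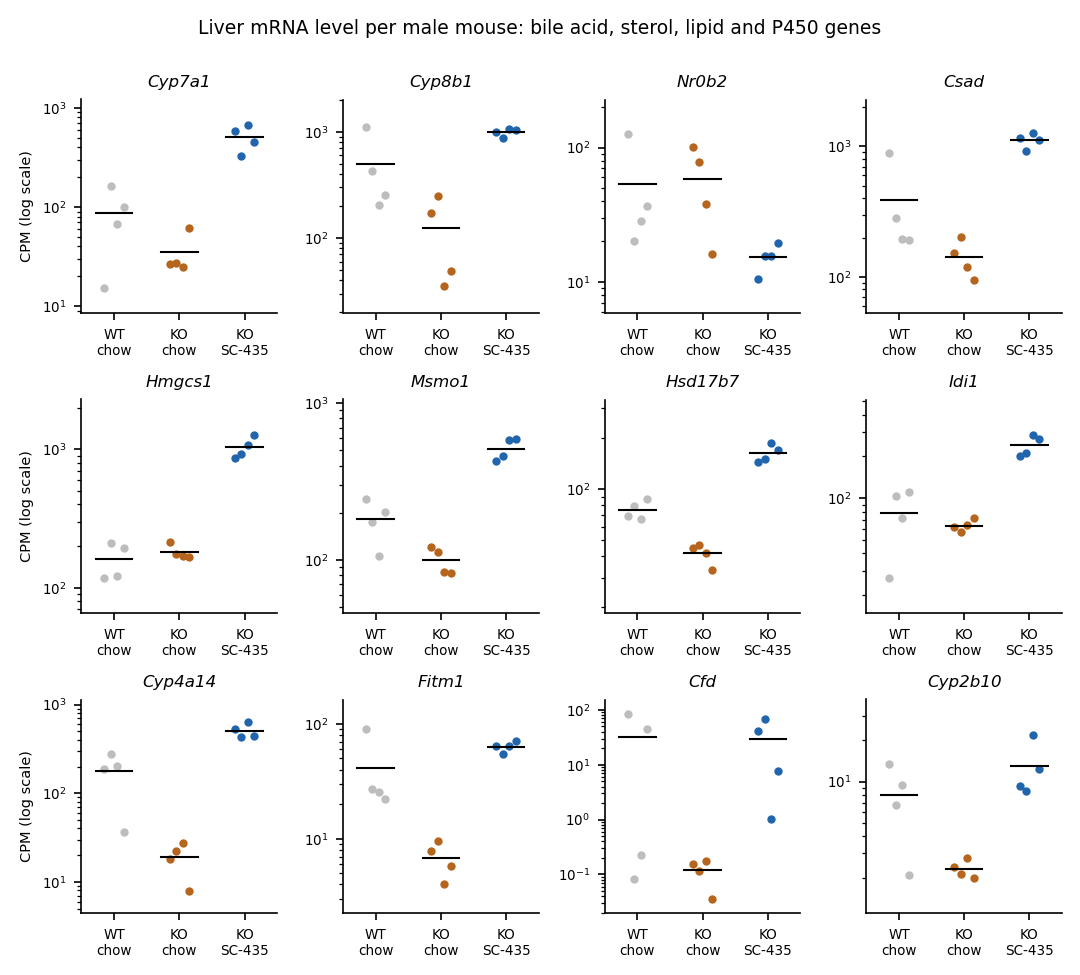
Liver mRNA level in CPM (log axis) of 12 genes, 1 point per male mouse and a bar at the mean of each group of 4. For *Cyp7a1*, *Csad*, *Hmgcs1*, *Msmo1*, *Hsd17b7* and *Idi1* every KO liver on SC-435 (blue) lies above every chow-fed KO liver (orange), while *Cfd* spans from 1.02 to 68.2 CPM among the treated livers and *Nr0b2* overlaps between the diets.

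Genes of cholesterol synthesis rose. All 25 tested genes of sterol synthesis and of the SREBP2 program had an adjusted p under 0.05 on the higher side (8.8% of all genes did), and 20 of 25 were called higher, none lower, with a median log2 change of 1.63. *Hmgcs1* (mm10 chr13:119690379-119708260, plus strand), the cytosolic HMG-CoA synthase, was at 213, 176, 169 and 166 CPM on chow and at 863, 932, 1081 and 1271 CPM on SC-435 (log2 2.49 ± 0.15, adjusted p = 9.5e-05). *Hsd17b7*, a sterol 3-ketoreductase, had 45, 46.7, 41.9 and 33.2 CPM and 145, 149.9, 188 and 171 CPM (log2 1.94 ± 0.12, adjusted p = 0.000104). *Msmo1*, the sterol 4-methyl oxidase, rose by 2.34, *Idi1*, the isopentenyl diphosphate isomerase, by 1.90, *Nsdhl*, a sterol dehydrogenase, by 1.78 and *Cyp51*, the lanosterol demethylase, by 1.74, with adjusted p between 9.5e-05 and 0.000151. In each of these 6 genes all treated livers exceeded all chow-fed ones. The 5 members below the fold limit included *Srebf2*, the transcription factor itself (0.61), the sterol carrier *Stard4* (0.87) and the sterol isomerase *Ebp* (0.82). Leaving out any single liver left 19 or 20 of the list called, and 20 were called without both livers holding adipocyte transcripts.

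Promoters of 4 called genes of the list are shown as examples of a group that moved together, and these 4 were chosen after their values were seen. RefSeq promoters (assembly GRCm38.p6, 250 bases before to 50 after the gene's start) were given for 17 of the 25 genes. In 16 of these 17 (94.1%, all but *Acat2*) the letters CCAAT occurred on either strand, the motif bound by NF-Y, against 42.5% of the 11261 tested genes with a promoter and 41.1% of all 27025 genes with a promoter. A gene counted when any of its promoters held a match. The sterol response element letters TCACNCCAC occurred in 1 of 17 (5.88%), *Hmgcs1*, against 1.49% of the tested genes. CCAAT was found for 11 of 16 fatty acid synthesis genes with a promoter (68.8%), 4 of 10 bile acid synthesis genes (40%) and 10 of 23 collagen and matrix genes (43.5%). A match describes the letters of the window and does not show binding. In the sequences, read 5′ to 3′ on the gene's strand, capitals mark CCAAT, written as its reverse complement where it lies on the opposite strand, and, in *Hmgcs1*, the 9 letters of TCACNCCAC. *Hmgcs1* lies at chr13:119690101-119690400 (plus strand, 4 CCAAT), *Idi1* at chr13:8885356-8885655 (plus strand, 2), *Nsdhl* at chrX:72918271-72918570 (plus strand, 4) and *Hsd17b7* at chr1:169969156-169969455 (minus strand, 3).
Hmgcs1: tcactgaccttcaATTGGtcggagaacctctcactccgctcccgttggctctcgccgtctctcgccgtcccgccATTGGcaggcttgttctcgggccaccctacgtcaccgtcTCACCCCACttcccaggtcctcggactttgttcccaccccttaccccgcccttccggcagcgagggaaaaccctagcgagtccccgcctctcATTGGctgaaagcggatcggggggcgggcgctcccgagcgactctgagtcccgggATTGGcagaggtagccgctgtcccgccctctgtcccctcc
Idi1: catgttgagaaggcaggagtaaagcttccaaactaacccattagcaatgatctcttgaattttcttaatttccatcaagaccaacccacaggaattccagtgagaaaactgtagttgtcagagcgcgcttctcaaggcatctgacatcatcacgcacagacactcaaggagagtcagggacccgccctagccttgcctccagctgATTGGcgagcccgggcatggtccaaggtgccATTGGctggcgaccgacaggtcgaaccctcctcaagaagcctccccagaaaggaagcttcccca
Nsdhl: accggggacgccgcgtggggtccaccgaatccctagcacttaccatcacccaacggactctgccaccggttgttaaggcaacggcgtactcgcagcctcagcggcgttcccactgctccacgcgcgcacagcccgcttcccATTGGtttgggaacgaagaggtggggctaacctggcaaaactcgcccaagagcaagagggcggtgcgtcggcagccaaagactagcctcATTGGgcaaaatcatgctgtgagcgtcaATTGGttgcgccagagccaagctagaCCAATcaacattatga
Hsd17b7: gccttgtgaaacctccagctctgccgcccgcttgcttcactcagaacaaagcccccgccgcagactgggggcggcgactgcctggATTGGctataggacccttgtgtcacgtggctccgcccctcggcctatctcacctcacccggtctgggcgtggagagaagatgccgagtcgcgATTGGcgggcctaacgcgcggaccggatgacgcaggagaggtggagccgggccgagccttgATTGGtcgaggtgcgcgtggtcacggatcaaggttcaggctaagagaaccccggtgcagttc

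Fatty acid and triglyceride synthesis rose in part, with 9 of 21 tested genes called higher, none lower, and a median of 0.97. *Acss2*, the cytosolic acetyl-CoA synthetase, went from 148, 138, 131 and 103 CPM to 565, 462, 847 and 642 CPM (log2 2.25 ± 0.19, adjusted p = 0.000277). *Me1*, the malic enzyme that supplies NADPH, had 88.8, 106, 94.6 and 79.1 CPM on chow and 388, 303, 454 and 435.1 CPM on SC-435 (log2 2.07, adjusted p = 0.000128). Neither gene overlapped between the diets. *Acacb* (1.55), the acetyl-CoA carboxylase that governs mitochondrial fatty acid entry, and the elongase *Elovl5* (1.49) were also called, as were *Fasn* (1.08), the fatty acid synthase, and *Gpam* (1.17), the first acyltransferase of triglyceride synthesis. The call of *Fasn* was lost without SC-435 replicate 3 or chow replicate 3. *Srebf1* (0.24, adjusted p = 0.525) and *Mlxipl* (-0.17, adjusted p = 0.641), the transcription factors SREBP1 and ChREBP of this pathway, were not called, and *Acaca*, the other carboxylase, was at 0.25 (adjusted p = 0.209).

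Fatty acid oxidation moved the same way at a smaller size: 5 of 24 genes were called higher, 17 had an adjusted p under 0.05 on the higher side, and the median was 0.60. *Cyp4a14* (mm10 chr4:115486200-115496142, minus strand), a fatty acid omega-hydroxylase induced through PPAR-alpha, stood at 18.1, 22.2, 27.4 and 7.96 CPM on chow and 533, 428, 633 and 438 CPM on SC-435, the third largest rise among the well-counted genes (26.3-fold, log2 4.72 ± 0.36, adjusted p = 0.000191). *Cyp4a10*, its paralog, rose by 2.01 and *Acaa1b*, a peroxisomal thiolase, by 1.85 (adjusted p = 0.00420 and 0.00117), and reads of near-identical members of these families may be split between them. *Acot1*, a cytosolic acyl-CoA thioesterase, rose by 1.4. *Ehhadh*, the peroxisomal bifunctional enzyme, rose by 1.07 (adjusted p = 0.00476), a call lost without SC-435 replicate 3 or chow replicate 4.

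Of 14 tested genes of lipid droplets and of adipocyte type, 6 were called higher, around a median of 1.15, and 1 of the 6 was the adipocyte gene *Cfd*. Another 5 of the 19 listed did not reach the count minimum, which the SC-435 livers alone can meet. *Pparg*, a transcription factor of lipid storage outside this list, was even within each diet, at 5.39, 5.20, 5.60 and 5.17 CPM on chow and 22.4, 24.3, 17.1 and 22.3 CPM on SC-435 (log2 1.98 ± 0.12, adjusted p = 9.5e-05). *Fitm1*, a fat storage-inducing transmembrane protein, had 7.84, 9.57, 4.04 and 5.75 CPM and 63.9, 54.4, 64.1 and 70.6 CPM (log2 3.19 ± 0.23, adjusted p = 0.000159). Both genes separated the diets fully. *Mogat1*, a monoacylglycerol acyltransferase, rose by 3.43, the lipid droplet coat genes *Plin4* and *Plin5* by 1.96 and 1.02, and *G0s2*, an inhibitor of triglyceride lipase, by 1.27 (adjusted p 0.00337, 0.00195, 0.00469 and 0.00985). *Plin5* was not called without SC-435 replicate 3, chow replicate 1 or chow replicate 4.

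*Cfd* (mm10 chr10:79890853-79892655, plus strand), complement factor D or adipsin, showed the largest rise of the well-counted genes and the widest spread. It measured 0.157, 0.115, 0.177 and 0.0353 CPM on chow and 42.0, 68.2, 1.02 and 7.69 CPM on SC-435 (log2 7.91 ± 1.37, adjusted p = 0.00780). Chow replicate 4 lay below the level of 3 counts. The treated livers themselves differed widely, and chow-fed WT livers ranged from 0.0822 to 85.8 CPM. In male WT mice *Cfd* did not rise on SC-435 (log2 -5.06, adjusted p = 0.670, or -3.89 and 0.217 without WT chow replicate 1). The difference of the drug effect between male and female KO mice was 15.88 ± 2.26 (male minus female, adjusted p = 0.00846), larger than the male rise itself. *Cfd* did not reach the count minimum in the female KO mice alone, so the size of that difference is uncertain. *Cfd* is abundant in adipocytes, and its 2 highest livers were SC-435 replicates 1 and 2, which also held *Adipoq*, *Plin1* (7.47, 13.3, 0 and 0 CPM in SC-435 replicates 1 to 4), *Retn* (2.75, 3.64, 0 and 0.0752 CPM) and *Lep* (0.0492, 0.0978, 0 and 0 CPM). *Fabp4* was 28.5, 41.3, 10.5 and 8.04 CPM and *Cidec* 16.7, 20.5, 5.98 and 5.69 CPM in the same order. These markers were chosen after their values were seen. Without those 2 livers, *Cfd* was still called (log2 5.14, adjusted p = 0.0307), as were *Fitm1* (3.29, 0.00419), *Mogat1* (3.67, 0.0297), *Plin4* (1.57, 0.0253) and *Plin5* (1.20, 0.0253), while *G0s2* (1.21, adjusted p = 0.0877) was not. With limma voom and quality weights on all 8 livers, *Cfd* was not called (log2 7.21, adjusted p = 0.262). The part of adipocyte RNA in the 2 livers' own values was not tested.

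Cytochromes P450 of xenobiotic and steroid metabolism rose in 15 of 39 tested genes, with none called lower and a median of 0.84. *Cyp17a1*, a steroid 17-alpha-hydroxylase, went from 2.67, 2.46, 0.808 and 1.5 CPM to 8.16, 7.29, 25.4 and 12.8 CPM (log2 2.82 ± 0.48, adjusted p = 0.00725). *Cyp2b10*, the classic target of the nuclear receptor CAR, was 2.38, 2.12, 2.78 and 1.98 CPM on chow and 9.32, 8.53, 22.1 and 12.4 CPM on SC-435 (log2 2.46, adjusted p = 0.00185). All treated livers were above all chow-fed livers for both. *Cyp2b9* (2.44), *Cyp2a5* (1.87), *Cyp2c38* (2.35), *Cyp2c39* (1.71) and *Cyp2c69* (2.98) were also called, and because the Cyp2a, Cyp2b and Cyp2c families hold near-identical genes, the share of each is uncertain. Without the 2 livers holding adipocyte transcripts, 7 of the list were called. In the 8 male KO livers themselves, *Cyp2c70* had a log2 change of -0.50 (adjusted p = 0.0225), short of the fold limit.

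Conjugation genes held a few calls in each family, where 1.88% of all genes tested were called higher and 4.57% lower. By adjusted p alone, 12 of 21 glutathione S-transferases, 6 of 19 glucuronosyltransferases and 5 of 10 sulfotransferases were higher, against 8.8% of all genes. On the lower side the numbers were 2, 1 and 0, and the medians of the 3 families were 0.62, 0.405 and 0.64. Of 19 glucuronosyltransferases, *Ugt1a5* (2.10, adjusted p = 0.00101) and *Ugt3a1* (1.24, adjusted p = 0.0102, not called without both livers holding adipocyte transcripts) were called higher, with the Ugt1 genes sharing exons. Of 21 glutathione S-transferases, *Gstt3* (1.60) and *Mgst3* (1.07) were higher and *Gstp2* (-1.63) lower, *Mgst3* not without SC-435 replicate 3 or chow replicate 1 or 2. *Sult5a1* (1.84, adjusted p = 0.0269) was the only sulfotransferase called of 10 tested, and not when any 1 SC-435 liver was left out. *Sult2a1* and *Sult2a2*, which sulfate bile acids, did not reach the count minimum for testing.

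The remaining large rises lay outside these pathways. *Fam19a2*, a secreted chemokine-like protein, was nearly silent on chow at 0.112, 0.138, 0.0394 and 0.0706 CPM and reached 5.38, 5.70, 5.36 and 7.72 CPM on SC-435 (65.3-fold, log2 6.03 ± 0.32, adjusted p = 9.5e-05). Chow replicate 3 lay below the level of 3 counts (0.0591 CPM in that liver), so the size of this rise is uncertain. *Ppp1r3g*, a glycogen-targeting subunit of protein phosphatase 1, had 0.247, 0.230, 0.217 and 0.212 CPM and 2.14, 1.27, 4.42 and 15.4 CPM (log2 4.64, adjusted p = 0.00788). *Dct*, dopachrome tautomerase, rose by 2.95, *Slc22a26*, a member of the organic anion transporter family, by 3.55, and *Serpinb1a*, an inhibitor of neutrophil proteases, by 2.92. For these 5 genes the 2 diets did not overlap, which was a condition for naming them among the largest rises.

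Of macrophage genes of the lipid-associated, scar-associated type, 9 of 19 were called lower and 1, the fatty acid translocase *Cd36* (1.39), called higher. *Gpnmb* (mm10 chr6:49036546-49070929, plus strand), a lysosomal glycoprotein of such macrophages, was at 11.1, 14.6, 22.4 and 80.2 CPM on chow and 0.885, 0.611, 0.242 and 0.201 CPM on SC-435. It was highest in chow replicate 4, yet every chow-fed liver exceeded every treated one by more than an order of magnitude (log2 -6.07 ± 0.81, adjusted p = 0.00263). *Trem2*, their lipid-sensing receptor, had 4.58, 2.83, 9.64 and 18 CPM and 0.86, 0.465, 0.808 and 0.476 CPM (log2 -3.79 ± 0.59, adjusted p = 0.00506). *Itgax*, the integrin CD11c, fell by 2.63, the tetraspanin *Cd63* by 2.90 and the actin-capping gene *Capg* by 2.12. The list's median was -0.48, and *Fabp5*, *Ctsd*, *Ctsb* and *Plin2*, which hepatocytes also express, had log2 changes of -0.19, -0.08, -0.27 and 0.10. Without both livers holding adipocyte transcripts 1 of the list was called lower, and *Cd36* was not called (adjusted p = 0.0751).

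Monocyte and neutrophil markers were called lower in 9 of 11 tested, with a median of -1.83 and a summed level of 115 to 513 CPM on chow against 64.3 to 75.8 CPM on SC-435. Of 22 listed, 11 were not tested, since they did not reach the count minimum. That minimum can be met through the chow-fed livers alone, which favours markers higher on chow, so these figures may depend on it. *Cd14*, the lipopolysaccharide co-receptor, went from 8.51, 6.37, 22.5 and 17.0 CPM to 2.29, 2.67, 2.13 and 2.76 CPM (log2 -2.50 ± 0.38, adjusted p = 0.00472). *S100a8*, a calprotectin subunit of neutrophils, was 0.561, 0.506, 0.710 and 0.758 CPM and 0.148, 0.245, 0.0269 and 0.125 CPM (log2 -2.22, adjusted p = 0.0144), a call lost without SC-435 replicate 4. The diets did not overlap for either gene, and *S100a8* in SC-435 replicate 3 lay below the level of 3 counts. The number of markers called was 4, 4, 3 and 1 without SC-435 replicate 1, 2, 3 or 4, 4 without chow replicate 3, and 0 without both livers holding adipocyte transcripts. Receptors of innate sensing followed with 7 of 28 called lower and a median of -1.20, led by *Clec7a*, the beta-glucan receptor (-2.38), and *Clec4d* (-2.19), but their count was 1, 1, 0 and 0 without SC-435 replicate 1, 2, 3 or 4, 15 without chow replicate 1, 1 without chow replicate 3 and 4 without chow replicate 4. *Clec7a* was not called without any 1 SC-435 liver, nor *Clec4d* without SC-435 replicate 3 or 4 or chow replicate 3. None of 17 Kupffer cell markers was called, with a median of -0.63 and summed levels that overlapped (579 to 1580 CPM on chow, 549 to 752 CPM on SC-435).

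Chemokines and their receptors were called lower in 13 of 28 tested, with a median of -1.24. A further 10 of the 38 listed did not reach the count minimum. The chow-fed livers alone can meet that minimum, so these figures may depend on it. *Ccl2* (mm10 chr11:82035571-82037453, plus strand), the attractant of monocytes, had 3.64, 7.77, 5.09 and 5.01 CPM on chow and 0.393, 0.367, 0.296 and 0.451 CPM on SC-435 (log2 -3.85 ± 0.28, adjusted p = 0.000159). *Cxcl1* and *Cxcl2*, attractants of neutrophils, fell by 3.38 and 2.84, *Cxcl1* from 37.5, 60.7, 12.9 and 11.0 CPM to 2.19, 2.05, 3.42 and 4.29 CPM (adjusted p = 0.00686). In none of these 3 genes did the diets overlap. *Ccl4* fell by 3.42, *Cxcl14* by 3.40 and *Cx3cl1*, the membrane-bound fractalkine, by 1.83. *Cxcl10*, an interferon-induced chemokine, fell by 1.23 (adjusted p = 0.0331), a call lost without SC-435 replicate 1, 2 or 3 or chow replicate 2 or 3. *Ccl5*, *Cxcl12* and *Ccl25* were not called (0.23, 0.10 and -0.01). Without both livers holding adipocyte transcripts 5 of the list were called.

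Of the genes of the IL-1 and TNF group, 8 of 23 tested were called lower, around a median of -0.84. Another 7 of the 30 listed did not reach the count minimum, which the chow-fed livers alone can meet, so these figures may depend on it. *Il1b* itself was not called: it had 3.91, 4, 3.57 and 3.95 CPM on chow and 2.34, 2.37, 0.781 and 2.41 CPM on SC-435, without overlap, but a log2 change of -0.99 ± 0.31 with an adjusted p of 0.0567. *Tnfaip3*, the feedback inhibitor of NF-kB, fell by 2.16 (adjusted p = 0.00200), the IL-1 receptor antagonist *Il1rn* by 1.81 (adjusted p = 0.00572) and the adhesion molecule *Icam1* by 1.56 (adjusted p = 0.00375). *Tnfrsf12a*, the TWEAK receptor, fell by 1.77, a call lost without SC-435 replicate 4. The count was 5, 5 and 4 without SC-435 replicate 2, 3 or 4, 5 without chow replicate 3 or 4, and 3 without both livers holding adipocyte transcripts.

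Collagen and matrix structural genes were called lower in 19 of 34, with a median of -1.30 and no member called higher. *Col1a1* (mm10 chr11:94936224-94953042, plus strand), the main fibrillar collagen chain, measured 46.2, 22.2, 105 and 220.2 CPM on chow and 13.4, 17.7, 10.7 and 7.24 CPM on SC-435. Every chow-fed liver was above every treated one, with chow replicate 4 highest, and the decrease was 3.04 ± 0.65 on the log2 scale (adjusted p = 0.0169). That call was lost without SC-435 replicate 1, 3 or 4. It was also lost without both livers holding adipocyte transcripts, where the change was -3.48 (adjusted p = 0.1045). *Thbs1*, thrombospondin 1, fell by 2.79 (adjusted p = 0.00223), tenascin C (*Tnc*) by 2.51 (0.0105), the alpha-3 chain of collagen VI (*Col6a3*) by 2.25 (0.00889) and lumican (*Lum*) by 2.22 (0.0102). The list's count was 5, 9 and 5 without SC-435 replicate 1, 3 or 4, 10 without chow replicate 3, and 1 without both livers holding adipocyte transcripts.

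Enzymes that cut or cross-link the matrix were called lower in 15 of 24, around a median of -1.64. *Mmp12* (mm10 chr9:7344381-7369499, plus strand), the macrophage elastase, was at 8.69, 9.54, 24.0 and 12.1 CPM on chow and at 0.639, 0.587, 0.431 and 0.201 CPM on SC-435 (29.7-fold lower, log2 -4.89 ± 0.45, adjusted p = 0.000440). *Timp1*, the inhibitor of matrix metalloproteinases, fell from 1.03, 0.759, 3.37 and 2.13 CPM to 0.197, 0.0978, 0.0539 and 0.125 CPM (log2 -3.94 ± 0.59, adjusted p = 0.00432). Neither overlapped between diets, and *Timp1* in SC-435 replicate 3 lay below the level of 3 counts. The collagenase *Mmp13* fell by 3.96, the collagen lysyl hydroxylase *Plod2* by 1.90, the cross-linking oxidase *Loxl1* by 1.78 and the urokinase receptor *Plaur* by 1.83. The count was 10 to 16 with any 1 liver left out and 1 without both livers holding adipocyte transcripts.

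Stellate cell genes gave a smaller signal, with 5 of 27 called lower and a median of -0.77. *Pdgfrb*, the platelet-derived growth factor receptor of stellate cells, went from 16.7, 16.9, 28.3 and 29.8 CPM to 8.80, 9.90, 9.21 and 6.09 CPM (log2 -1.47 ± 0.24, adjusted p = 0.00594). *Acta2*, the smooth muscle actin of activated stellate cells, overlapped between the diets (6.56, 2.46, 3.94 and 5.91 CPM and 4.47, 5.35, 2.07 and 1 CPM) and was not called (log2 -0.58, adjusted p = 0.432), nor was *Tgfb1* (-0.61, adjusted p = 0.0597). The count was 1, 2, 2 and 1 without SC-435 replicate 1, 2, 3 or 4, 1 and 2 without chow replicate 3 or 4, and 0 without both livers holding adipocyte transcripts.

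Bile duct markers were called lower in 15 of 20 tested, with a median of -1.70 and a summed level of 428 to 1690 CPM on chow and 269 to 300 CPM on SC-435. Another 4 of the 24 listed did not reach the count minimum, which the chow-fed livers alone can meet. *Krt19*, the duct keratin, had 4.40, 2.35, 5.82 and 4.18 CPM on chow and 1.5, 1.52, 1.83 and 0.977 CPM on SC-435 (log2 -1.56 ± 0.30, adjusted p = 0.0114). *Tspan8*, a tetraspanin of epithelia, fell from 4.02, 3.50, 11.5 and 8.04 CPM to 1.18, 1.35, 0.862 and 0.576 CPM (log2 -2.80 ± 0.44, adjusted p = 0.00513). The groups stayed apart for both. *Epcam*, the epithelial adhesion molecule, fell by 1.72, E-cadherin (*Cdh1*) by 1.69, *Muc1* by 1.8 and *Sox9*, the transcription factor of duct cells, by 1.22. *Aqp1*, also found in endothelium, was at 0.30 and was not called. The count was 9 without SC-435 replicate 1, SC-435 replicate 4 or chow replicate 3, and 2 without both livers holding adipocyte transcripts.

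**Figure D3:**
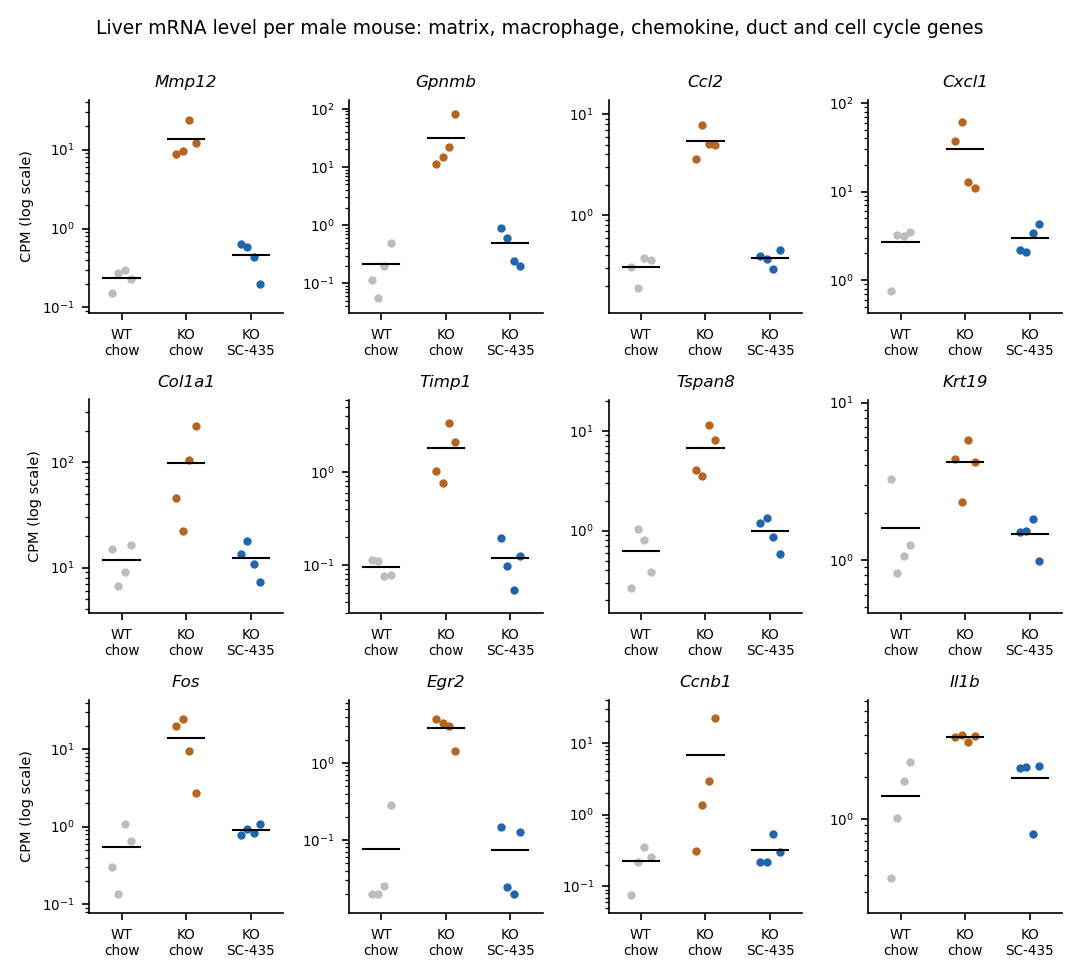
Liver mRNA level in CPM (log axis) of 12 genes, 1 point per male mouse and a bar at the mean of each group of 4; values under 0.02 CPM are drawn at 0.02. *Mmp12*, *Gpnmb*, *Ccl2*, *Timp1* and *Tspan8* separate the chow-fed KO livers (orange) from the KO livers on SC-435 (blue), whereas *Ccnb1* overlaps between the diets, with 1 chow-fed liver at 22.4 CPM.

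Immediate early genes, which cells switch on within minutes of a stimulus, were called lower in 11 of 25, with a median of -1.14; the list was added after *Fos*, *Fosb* and *Egr2* had been seen. *Fos* measured 19.9, 24.4, 9.56 and 2.73 CPM on chow and 0.787, 0.929, 0.835 and 1.08 CPM on SC-435, the treated livers being close to each other (log2 -3.98 ± 0.60, adjusted p = 0.00457). *Egr2* had 3.70, 3.33, 3.00 and 1.43 CPM and 0.148, 0.0245, 0 and 0.125 CPM (log2 -5.22 ± 0.61, adjusted p = 0.00156), 1 treated liver having no count. SC-435 replicate 2 also lay below the level of 3 counts for *Egr2*. *Fosb* fell by 5.01, *Atf3* by 2.53, *Ier3* by 1.75 and *Jun* by 1.47, and none of these 6 genes overlapped between the diets. *Jund*, *Zfp36* and *Dusp1*, of the same class, were not called (-0.16, -0.15 and -0.54). Without the 2 livers holding adipocyte transcripts 3 of the list were called.

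The stress and acute phase lists moved less. Of 22 genes of the endoplasmic reticulum and integrated stress responses, 4 were lower, among them *Sdf2l1* (-1.25) and *Creld2* (-1.32) of the unfolded protein response, and *Asns*, the asparagine synthetase, was higher (1.95, adjusted p = 0.00688), *Creld2* and *Asns* not without both livers holding adipocyte transcripts. Of 27 acute phase genes 5 were lower, with *Saa1* at 199, 129, 248 and 75.2 CPM on chow and 46.6, 44.5, 38.8 and 38.2 CPM on SC-435 (log2 -1.98, adjusted p = 0.00535) and *Lcn2*, lipocalin 2, falling by 2.82 (adjusted p = 0.00368). *Saa1* and *Saa2* are near-identical, and reads may be split between them. The acute phase count was 3 without chow replicate 3 and 0 without both livers holding adipocyte transcripts.

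Of 34 cell cycle genes tested, 6 were called lower, with a median of -1.77. *Ccnb1*, the mitotic cyclin B1, was 0.314, 1.38, 2.90 and 22.4 CPM on chow and 0.221, 0.220, 0.539 and 0.301 CPM on SC-435 (log2 -4.45 ± 1.21, adjusted p = 0.0365). Chow replicate 1 lay inside the treated range and replicate 4 far above. The count was 20 and 14 without chow replicate 1 or 2, 1 without chow replicate 3, 1 when any single SC-435 liver was left out, and 0 without both livers holding adipocyte transcripts. *Ccnb1* was among the calls lost without chow replicate 3 or any 1 SC-435 liver, and it was still called without chow replicate 4. *Ccnd1*, the G1 cyclin, was called with any 1 liver left out, with 27.9, 30.8, 61.5 and 99.5 CPM and 16.5, 13.1, 15.9 and 10.8 CPM and no overlap (log2 -2.01 ± 0.39, adjusted p = 0.0122).

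Further large falls came from genes outside the lists. *Tmc5*, a transmembrane channel-like gene, was at 2.36, 1.45, 5.36 and 4.62 CPM on chow and had 0 counts in all 4 SC-435 livers, which allows a level of up to 0.0808 CPM (adjusted p = 0.00278). *Sprr1a*, a small proline-rich protein of stressed epithelia, measured 2.74, 0.828, 14.6 and 18.9 CPM and 0.123, 0.122, 0 and 0 CPM (adjusted p = 0.00776). *Inava*, an activator of innate signalling, fell by 4.99, the adaptor *Shc2* by 4.36, the odorant-binding protein gene *Obp2a* by 4.18 and the transmembrane gene *Tmeff2* by 4.03. Full separation of the diets was a condition for naming these 6. *Sprr1a*, *Inava* and *Shc2* were not called without both livers holding adipocyte transcripts.

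Other cell type lists held few calls. None of 12 endothelial markers was called (median 0.20), nor any of 16 periportal genes or 20 circadian clock genes. Of 26 lymphocyte markers, *Zap70* (1.5) and *Ighm* (1.77) were called higher and none lower, *Zap70* not without both livers holding adipocyte transcripts and *Ighm* not without SC-435 replicate 3 or 4 and with overlap between the diets. Of 16 genes of MHC class II presentation only *Cd83* was called lower, a call lost without any 1 SC-435 liver or chow replicate 3 or 4. All 16 had a log2 change below 0, with a median of -0.73, and the list's summed levels overlapped between the diets.

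**Figure D4:**
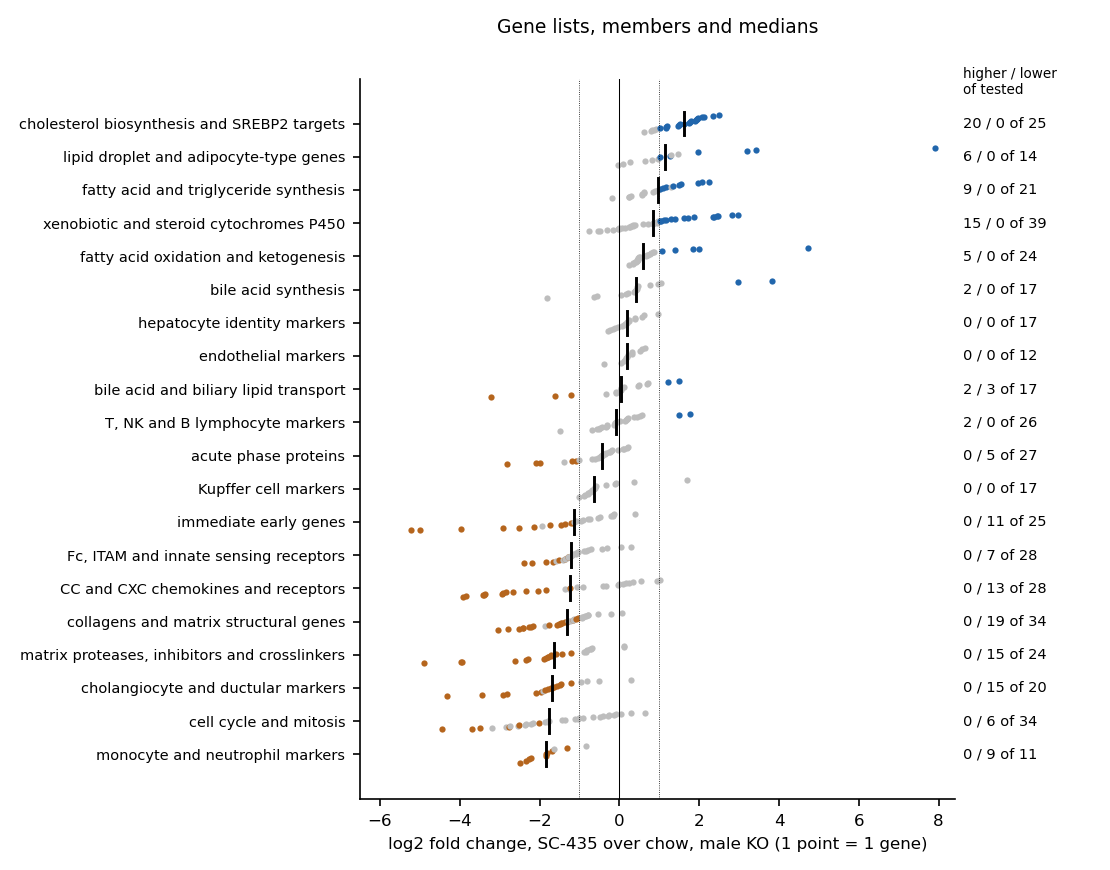
Log2 fold change, SC-435 over chow, of the tested members of 20 gene lists in male KO livers, 1 point per gene, with the list median as a black bar. Blue points are called higher and orange points lower, and the columns at the right give both counts and the number tested; medians run from 1.63 for cholesterol synthesis to -1.83 for monocyte and neutrophil markers.

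Set against WT livers, most of the lower genes were near the chow-fed WT level on SC-435, and most of the higher genes were near the level of WT mice on SC-435. For the 730 genes called lower, the mean level in KO mice on SC-435 was within 0.5 (log2) of chow-fed WT replicates 2 to 4 for 530 genes (72.6%), with a median difference of 0.03, whereas chow-fed KO mice differed from the same WT livers by a median of 1.35. For the 301 genes called higher, KO mice on SC-435 lay within 0.5 of chow-fed WT replicates 2 to 4 for 76 genes (25.2%) and within 0.5 of WT mice on SC-435 for 224 (74.4%). The WT mean on SC-435 included replicate 4, in which the 301 genes averaged 3.22 (log2 CPM) against 3.78 to 3.84 in the rest of that group. The genes of both sets were selected on the KO livers used here, so the figures describe levels and carry no test. *Mmp12* and *Ccl2*, for example, had 0.152, 0.274, 0.300 and 0.232 CPM and 0.304, 0.192, 0.375 and 0.361 CPM in chow-fed WT livers, and the KO against WT contrast on chow, which shares the chow-fed KO mice, gave log2 differences of 5.84 (adjusted p = 0.00163) and 4.15 (adjusted p = 0.00209), or 5.69 (0.00254) and 4.14 (0.00283) without WT chow replicate 1. For *Cyp7a1* and *Hmgcs1* the chow-fed WT livers had 15.2, 163, 67.3 and 98.8 CPM and 118, 212, 122 and 194 CPM, below every KO liver on SC-435, and the KO against WT contrast on chow gave -1.25 (adjusted p = 0.367) and 0.20 (adjusted p = 0.713), or -1.61 (0.0486) and 0.07 (0.830) without that WT liver.

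Whether the drug effect differed between male and female KO mice was tested as a difference of the 2 effects, and 36 of 17069 genes (0.211%) passed an adjusted p of 0.05, 19 of them with the larger value in males. *Cyp4a14* led, with a log2 effect of 4.72 ± 0.36 in males and 0.97 ± 0.19 in females (difference 3.76 ± 0.41, adjusted p = 0.00145). Female KO livers had 356, 288, 295 and 493 CPM on chow and 603, 909.9, 672 and 650.4 CPM on SC-435. *Plin4* rose in males (1.96) and had -1.05 ± 0.29 in females (adjusted p of the difference 0.00466). *Gpat4*, an acyltransferase of glycerolipid synthesis, had 0.85 and -0.32, *Smoc2*, a matricellular protein, -0.62 and 2.01, and *Dpysl2*, a cytoskeletal regulator, -0.81 and 0.98 (each adjusted p of the difference 0.00466). The differences for *Plin4*, *Smoc2* and *Dpysl2* did not pass without the 2 male livers holding adipocyte transcripts. The differences for *Cyp7a1* (0.41, adjusted p = 0.885), *Hmgcs1* (-0.79, 0.413), *Mmp12* (-0.43, 0.862) and *Col1a1* (-1.30, 0.491) did not pass. This count moved with single livers: it was 7, 15 and 6 without male SC-435 replicate 1, 2 or 4, 11 without male chow replicate 3, 7, 6, 8 and 8 without female SC-435 replicate 1, 2, 3 or 4, and 16, 21, 8 and 185 without female chow replicate 1, 2, 3 or 4. It was 2 without the 2 male livers holding adipocyte transcripts.

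The difference between the effects in male KO and male WT mice passed for 15 of 16555 genes (0.0906%), 13 of them more negative in KO mice. *Mmp12* fell by 4.89 in KO mice and had 0.55 ± 0.34 in WT mice (difference -5.44 ± 0.56, adjusted p = 0.000775). *Ccl2* fell by 3.85 in KO mice against 0.07 ± 0.37 in WT mice (difference -3.93 ± 0.43, adjusted p = 0.000814). In the WT livers on SC-435 *Mmp12* was 0.349, 0.335, 0.372 and 0.377 CPM and *Ccl2* 0.320, 0.263, 0.293 and 0.430 CPM, far below the chow-fed KO livers. *Dhrs9*, a retinol dehydrogenase, differed by -2.75 (adjusted p = 0.0211), *Mlkl*, the effector of necroptosis, by -1.70 and *Pparg* by 1.17 (adjusted p = 0.0299 for both). The effects on *Cyp7a1* (3.83 in KO, 2.70 in WT, adjusted p of the difference 0.476) and *Hmgcs1* (2.49 and 2.48, 0.991) did not pass. Without WT chow replicate 1, which stood apart, 118 of 16932 genes (0.697%) passed, and the 5 named differences were then -5.33 for *Mmp12*, -3.94 for *Ccl2*, -2.69 for *Dhrs9*, -1.61 for *Mlkl* and 1.10 for *Pparg*. Without that liver the WT effects were 0.41 for *Mmp12*, 0.06 for *Ccl2*, 2.35 for *Cyp7a1* (adjusted p = 0.00844, against 0.255 with it) and 2.37 for *Hmgcs1* (0.00265, against 0.0205), and the adjusted p of the difference was 0.131 for *Cyp7a1* and 0.865 for *Hmgcs1*. Over 22 alternatives the difference of *Dhrs9* was lost under 4 and those of *Mlkl* and *Pparg* under 13 each, most of them with 1 KO or WT liver left out. The number of genes that passed was also 3, 3, 6 and 2 without KO SC-435 replicate 1, 2, 3 or 4, 25 and 2 without KO chow replicate 2 or 3, 5 without WT SC-435 replicate 1, 2 or 4, and 2 and 4 without WT chow replicate 2 or 3.

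**Figure D5:**
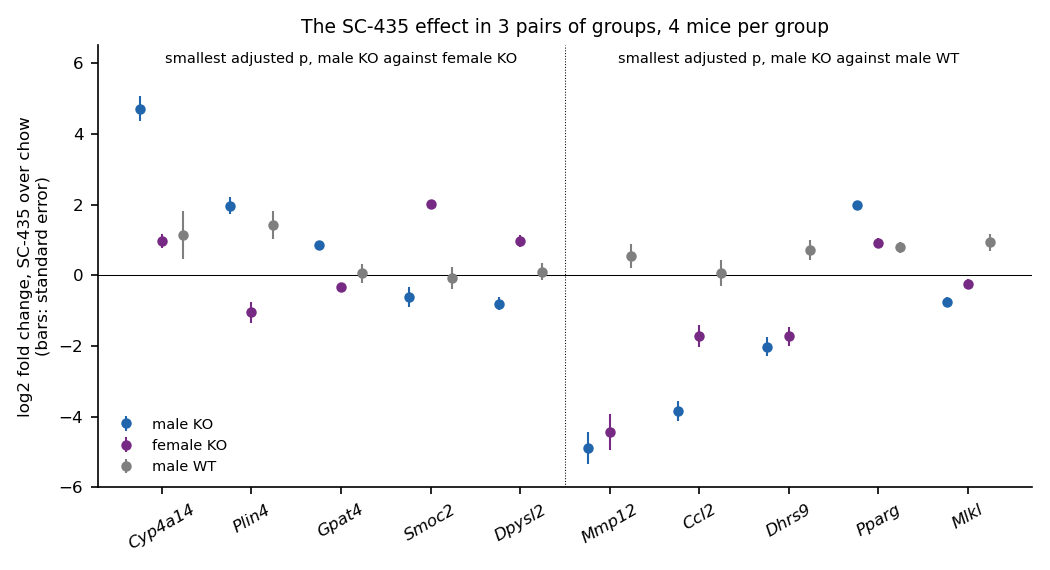
Log2 fold change, SC-435 over chow, with its standard error for 10 genes in male KO, female KO and male WT mice (4 mice per group). On the left are the 5 genes with the smallest adjusted p for a difference between male and female KO mice, on the right the 5 for male KO against male WT, where *Mmp12* and *Ccl2* lie below 0 in both KO groups and above 0 in male WT mice, and *Pparg* is highest in male KO mice.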

How the data were processed

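Poly(A) RNA of 32 mouse livers was sequenced, and 8 livers, 4 chow-fed male KO and 4 male KO on SC-435, entered the main comparison. The authors deposited featureCounts gene counts, raw whole numbers per gene for 54532 genes (22412 with no count in any liver), made from HISAT2 alignments to mm10. The submitters' processing notes name HISAT2 2.0.5, featureCounts 1.5.0-p3, DESeq2 1.20.0 and GATK 4.1.1.0. The 32 FPKM columns and the 35 columns of fold changes and p-values of the authors' own comparisons in the same table were not used. Whether counting used strand is not given in the sources used here, so overlapping and antisense genes cannot be told apart.

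Counts were tested with edgeR 4.0.16 in R 4.3.3 (filterByExpr, TMM, quasi-likelihood F-test, 2-sided, Benjamini-Hochberg adjustment over all genes tested) on the 8 livers with diet as the only term. The count filter can be met by the 4 livers of 1 diet alone. Calls needed both an adjusted p below 0.05 and a log2 change beyond 1. The SE is the change divided by the root of F. Differences of effects were interaction terms over 16 livers, called on the adjusted p alone. CPM values use TMM over all 32 livers. Library totals were 40990395 to 44192999 counts in the 8 livers, and limits from 3 counts cover counting error only. Each sample is 1 mouse, numbered in the labels, and p-values measure the spread between these mice. On simulated counts with 200 of 15984 genes changed by 2 (log2), the edgeR test recovered 180 and made 4 wrong calls. For the difference between sexes it recovered 160 of 200 with 9 wrong calls, and for that between genotypes 120 with 8. A difference that did not pass may therefore have been missed.

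Genes named were the 12 strongest called rises and 12 strongest falls (protein-coding, averaging 50 counts or more, diets not overlapping), genes the study names, up to 6 called members of each of 42 lists, members given as not called (a few list members are not reported here), and the 5 leading differences of effects. The comparison, members and lists were chosen with earlier results of these data known. DESeq2 1.42.0, limma 3.58.1 voom with quality weights, other scaling, count filters, a replicate block, 1 fit of the 4 male groups and leaving out each liver were the alternatives. Leaving out both livers with adipocyte transcripts, and leaving WT chow replicate 1 out of the WT effect and of KO against WT on chow, were added after seeing the data. No genome sequence was used; promoters came from RefSeq (GRCm38.p6).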

Additional observations from a re-analysis of the deposited data

Results flagged for a closer look

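Groups of 4 livers were screened for 1 value that stood apart from the other 3 by Dixon's ratio, in 88 groups, where chance marks about 1 in 20. In male KO mice 4 values stood apart, a number near what chance alone gives at that rate. *Cyp7a1* was 61.0 CPM in chow-fed replicate 4 against 25.0 to 26.9 CPM in the other 3, still below every treated liver. *Gpnmb* was 80.2 CPM in chow-fed replicate 4 against 11.1 to 22.4 CPM. *Fam19a2* was 7.72 CPM in SC-435 replicate 4 against 5.36 to 5.70 CPM, and *Il1b* was 0.781 CPM in SC-435 replicate 3 against 2.34 to 2.41 CPM.

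The SC-435 effect differed between male and female KO mice, as tested by the difference itself, with log2 differences (male minus female) of 3.76 for *Cyp4a14* (adjusted p = 0.00145), 3.03 for *Plin4*, 1.20 for *Gpat4*, -2.60 for *Smoc2* and -1.76 for *Dpysl2* (adjusted p = 0.00466 for each of the last 4). Only that of *Cyp4a14* passed under all 23 alternatives. *Plin4*, *Smoc2* and *Dpysl2* did not pass without the male livers holding adipocyte transcripts, nor *Plin4*, *Gpat4* and *Dpysl2* with the replicate number as a block. Male chow-fed KO livers had 18.1, 22.2, 27.4 and 7.96 CPM of *Cyp4a14* and female ones 356, 288, 295 and 493 CPM, while on SC-435 the values were 533, 428, 633 and 438 CPM in males and 603, 909.9, 672 and 650.4 CPM in females. *Smoc2* was 10, 8.26, 15.9 and 21.0 CPM on chow and 9.83, 7.11, 11.5 and 8.55 CPM on SC-435 in males, and 9.18, 10.9, 10.1 and 10.4 CPM and 38.7, 53.8, 35.5 and 36.9 CPM in females.

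Between male KO and male WT mice the tested log2 differences (KO minus WT) were -5.44 for *Mmp12* (adjusted p = 0.000775), -3.93 for *Ccl2* (0.000814), -2.75 for *Dhrs9* (0.0211), 1.17 for *Pparg* and -1.70 for *Mlkl* (0.0299 for both). Those of *Mmp12* and *Ccl2* passed under all 22 alternatives, while that of *Dhrs9* was lost under 4 and those of *Pparg* and *Mlkl* under 13 each. *Dhrs9* was 21.2, 18.8, 34.1 and 36.4 CPM on chow and 8.14, 8.29, 4.55 and 6.79 CPM on SC-435 in KO mice, and 1.56, 2.19, 2.15 and 1.86 CPM and 2.44, 3.59, 2.21 and 4.65 CPM in WT mice. *Pparg* in WT mice was 11.9, 10.4, 9.76 and 10.6 CPM on chow and 19.6, 19.0, 20.1 and 16 CPM on SC-435.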

How the results depend on the processing

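Of 158 called genes named here, 55 were called under every alternative in which they were tested. Of 3003 recomputed gene values, 2568 kept direction and call, 432 kept direction without passing, 1 passed newly and 2 turned direction, both for *Abcb11*, which was 0.03: -0.16 with library size scaling only and -0.017 without KO chow replicate 4 (up to 0.078 without chow replicate 1). Over single livers left out, genes called higher ranged from 231 to 349 and lower from 268 to 1079 (main 301 and 730), the sex difference from 6 to 185 (main 36) and the genotype difference from 2 to 118 (main 15). Lower calls were 310, 482, 372 and 268 without SC-435 replicate 1, 2, 3 or 4 and 351 without chow replicate 3, and 1079 and 1034 without chow replicate 1 or 2. Leaving out SC-435 replicates 1 and 2 together, with fewer samples, gave 163 higher and 93 lower, 227 of these 256 calls shared with the full set, and 2 genes that differed by sex.

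DESeq2 gave 328 higher and 1023 lower, 339 genes differing by sex and 356 by genotype. Library size scaling only gave 204 higher and 1083 lower and 14 differing by sex, shifted the median of all genes from -0.03 to -0.23 and the share of called genes that were higher from 29.2% to 15.9%. Relative to that shift the list medians moved alike (cholesterol synthesis 1.63 to 1.41, collagens -1.30 to -1.56). Without a count filter 57 genes differed by genotype. The cause of these changes was not tested.

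Same-numbered mice did not vary together (correlations of 0.03, -0.09, 0.16 and -0.06), and not every liver correlated best with its own number. With the replicate number as a block, 259 genes were higher, 420 lower, 3 differed by sex (not *Plin4*, *Gpat4* or *Dpysl2*) and 3 by genotype (not *Dhrs9*, *Mlkl* or *Pparg*). Below about 0.08 CPM, the level of 3 counts, changes were not detectable at this depth.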

Other observations

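Several gene groups outside the pathways above held a few calls each, against 1.88% of all genes called higher and 4.57% called lower. Of 16 genes of pericentral hepatocytes, 3 were higher and none lower, among them *Oat*, ornithine aminotransferase, at 759, 1037, 848 and 579 CPM on chow and 2287, 2394, 2864 and 2336 CPM on SC-435 (log2 1.59 ± 0.18, adjusted p = 0.00125), and *Rhbg*, an ammonium transporter (1.29, adjusted p = 0.00185). The other pericentral markers *Cyp2e1* (0.84, adjusted p = 0.0556), *Cyp1a2* (0.24, 0.197) and *Axin2* (0.22, 0.436) were not called. Of 21 retinoid genes, the retinol dehydrogenases *Rdh11* (42.2, 33.9, 35.1 and 36.7 CPM to 157, 149, 220.1 and 199 CPM, log2 2.26, adjusted p = 9.5e-05) and *Rdh16* (2.04, adjusted p = 0.000561) were higher, while *Dhrs9* (-2.03, adjusted p = 0.00257) was lower. Of 26 genes of lipoprotein handling, *Pltp*, the phospholipid transfer protein, was the clearest at 17.4, 20.4, 26.2 and 39.8 CPM on chow and 102, 78.9, 128 and 139.5 CPM on SC-435 (log2 2.08 ± 0.28, adjusted p = 0.00263), without overlap.

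Among 23 genes of the growth hormone axis and of sex-biased expression, 5 were higher and 1 lower. Over all genes tested 1.88% were higher and 4.57% lower. The list's median was -0.09, with 10 members above 0 and 13 below. *Bcl6* was the lower gene (-2.23, adjusted p = 0.0342), a call lost under 6 of 17 alternatives. *Cyp2b9*, which female livers express more, was 0.135, 0.253, 0.0591 and 0.106 CPM on chow and 0.418, 0.660, 1.24 and 0.752 CPM on SC-435 (log2 2.44, adjusted p = 0.0121), and *Abcd2*, a peroxisomal fatty acid transporter, rose by 1.63 (adjusted p = 0.00583). Of 19 major urinary protein genes, *Mup20* was lower (-1.42, adjusted p = 0.000814) and *Mup2* higher (1.03, adjusted p = 0.0467), the latter a call lost under 11 of 17 alternatives, among them any 1 SC-435 liver left out. These near-identical genes share reads. *Hamp2*, a hepcidin paralog, was the only 1 of 19 iron genes called (1.77, adjusted p = 0.0117). Interferon-stimulated genes were lower in 3 of 29 (*Oas1a*, *Oas2* and *Oasl2*), a count of 0 without SC-435 replicate 1, 2 or 3, 1 without SC-435 replicate 4 or chow replicate 4, and 6 and 5 without chow replicate 1 or 2. None of 21 NRF2 target and oxidative stress genes was called (edgeR, 9 higher and 1 lower by adjusted p alone), and none of 5 erythroid genes or of the 1 acinar gene tested.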
